A study of Mus musculus with 26 samples.

Results

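The genes described here concern cholinergic transmission. Chat makes acetylcholine, Ache breaks it down, and Slc5a7, Slc10a4 and Slc44a5 belong to transporter families. Chrna3, Chrna4, Chrnb2 and Chrnb4 encode nicotinic receptor subunits. All 9 genes were taken by symbol from a table of FPKM (a level corrected for gene length and for library size). Each was found once among 37450 gene IDs. The table holds ribosome-depleted total RNA from mouse embryonic stem (ES) cells on their way to spinal motor neurons, with 1 library per day. The day 0 library came from ES cells labelled HBG3 with no factor added. The day 4 library came from motor neuron progenitors, also labelled HBG3, which had received 1 uM retinoic acid (RA) and 0.25 uM SAG, a Hedgehog pathway agonist, from day 2. The day 5 and day 6 libraries came from cells called postmitotic motor neurons and labelled iCre, which had received RA and SAG in the same way and DAPT, which blocks Notch by inhibiting gamma-secretase, at 5 uM on day 4 (the day 5 cells) or on days 4 and 5 (the day 6 cells). Another label names Ainv15 cells for all 4 libraries. By the HBG3 and iCre labels, the line, the day and the addition of DAPT all change between day 4 and day 5, and their contributions to that step cannot be told apart.

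Spinal motor neurons release acetylcholine onto muscle and onto neighbouring spinal neurons. Choline enters the terminal through the high-affinity transporter Slc5a7, choline acetyltransferase (Chat) joins it to an acetyl group taken from acetyl coenzyme A, and acetylcholinesterase (Ache) splits the released transmitter so that the choline can be taken up again. Nicotinic receptors are ion channels built from several subunits around a pore. Chrna4 with Chrnb2 is the common pairing in the brain, Chrna3 with Chrnb4 the common pairing in autonomic ganglia, and muscle uses a set of its own.

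The 4 libraries listed between 10145 and 10509 genes at 1 FPKM or more. The number of reads behind each library is unknown. In genes listed between 0.01 and 0.04 FPKM in both libraries, where single reads set the values, the most common ratio was 0.502 for day 0 over day 4 (13.4% of 268 genes), 1.03 for day 4 over day 5 (42.8% of 318) and 1.33 for day 5 over day 6 (35.2% of 366), so that 1 read weighed about the same on days 4 and 5. Since each day has a single library, the spread between cultures is unknown, no test was made, and a change in the number of cells of a type cannot be told apart from a change in RNA per cell. Differences were taken as log2(FPKM + 1), which understates those of low genes, and a gene is called higher or lower at a 2-fold difference when it reached 1 FPKM in either library. The labels were checked on defining genes: 5 ES cell genes summed to 468.8 FPKM on day 0 and to at most 0.714 later, 5 ventral progenitor genes (Olig2, Nkx6-1, Pax6, Hes5 and Olig1) to 3.22, 206.6, 42.2 and 9.62 on days 0, 4, 5 and 6, and 4 motor neuron factors (Isl1, Mnx1, Lhx3 and Lhx4) to 0.744, 10.5, 171.4 and 152.7.

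The 9 cholinergic genes were nearly silent in ES cells and came up in stages. Their summed level was 0.261 FPKM on day 0, 8.21 on day 4, 68.4 on day 5 and 110.0 on day 6. On day 0 no gene of the 9 reached 1 FPKM, on day 4 2 did (Chrna3 and Chrna4), on day 5 7 did and on day 6 8 did. The receptor subunits, Chat and Slc10a4 made their main gain by day 5, whereas Slc5a7, Ache and Slc44a5 were still under 10% of their highest level on day 5. From day 4 to day 5 the summed level of the progenitor genes above was lower and that of the motor neuron factors higher, and from day 5 to day 6 both sums were lower. The part of these shifts in the levels below was not tested.

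**Figure D1:**
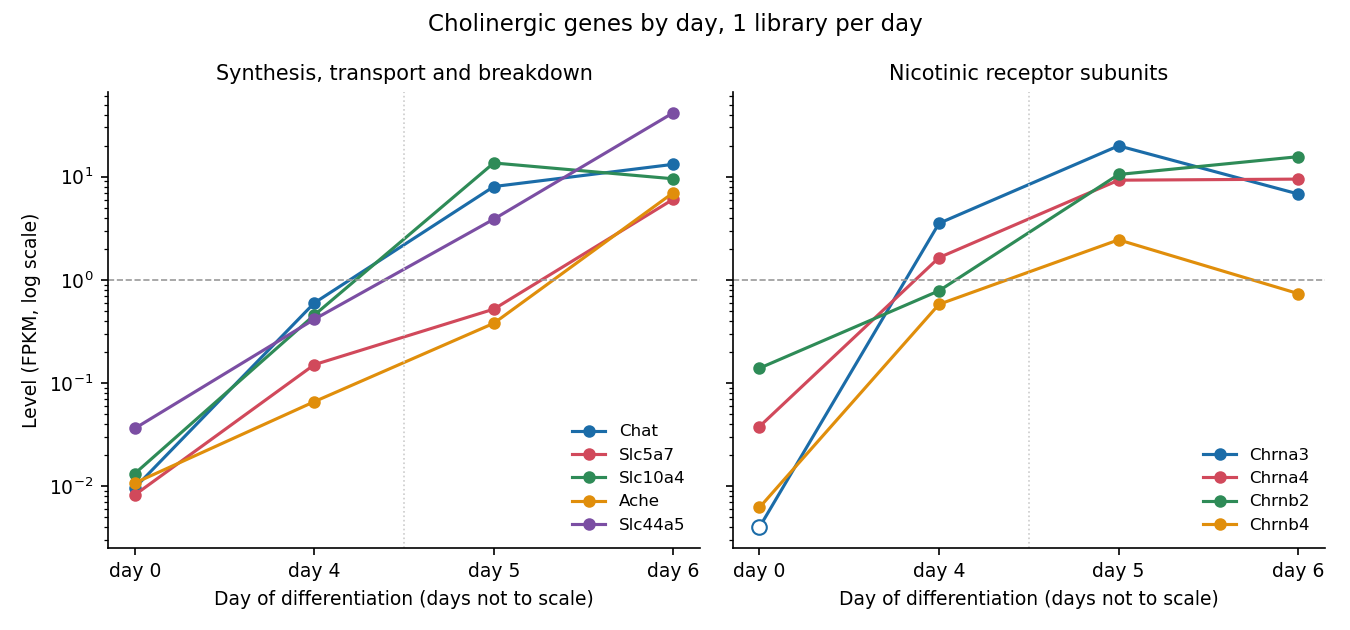
FPKM of the 9 genes on a log axis by day, 1 point per library. The open circle marks Chrna3, listed at 0 on day 0, the dashed line is 1 FPKM and the dotted line marks the change of the labelled line from HBG3 to iCre. Slc5a7 and Ache were still below 1 FPKM on day 5, and Chrna3, Chrnb4 and Slc10a4 were highest on that day.

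From ES cells to progenitors, 2 of the 9 genes were called higher and 0 lower, against 19.3% of 11482 genes called higher and 11.9% called lower. Both entered by reaching 1 FPKM on day 4, and the other 7 stayed below it in both libraries. Over all 9 genes, including the 7 not tested, the median difference was 0.65 on the log2(FPKM + 1) scale. The median over all genes tested was 0.23, and over all 37450 genes without the filter it was 0.0. The median gene at 1 FPKM or more in both libraries differed by 0.24 in this step. With that shift removed, 13.8% of genes were higher and 14.6% lower, and the same 2 counts were obtained for the cholinergic genes.

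From progenitors to day 5, 7 of the 9 genes were called higher and 0 lower, against 11.5% and 14.7% of 11339 genes. Of the 7, 5 had been below 1 FPKM on day 4 and could enter only by going up. All 9 differences were above 0, with a median of 1.96, which includes Slc5a7 and Ache, below 1 FPKM in both libraries and not tested. The median over all genes tested was -0.11, and over all 37450 genes without the filter it was 0.0. From day 5 to day 6, both labelled iCre, the genes parted. In that step 3 were called higher (Slc5a7, Ache and Slc44a5), 1 lower (Chrna3) and 5 lay within 2-fold, against 6.57% higher and 6.19% lower among 11164 genes. Slc5a7 and Ache had been below 1 FPKM on day 5, so 2 of the 3 higher calls could enter only by going up. The median of the 9 was 0.53 and that of all genes tested -0.07.

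**Figure D2:**
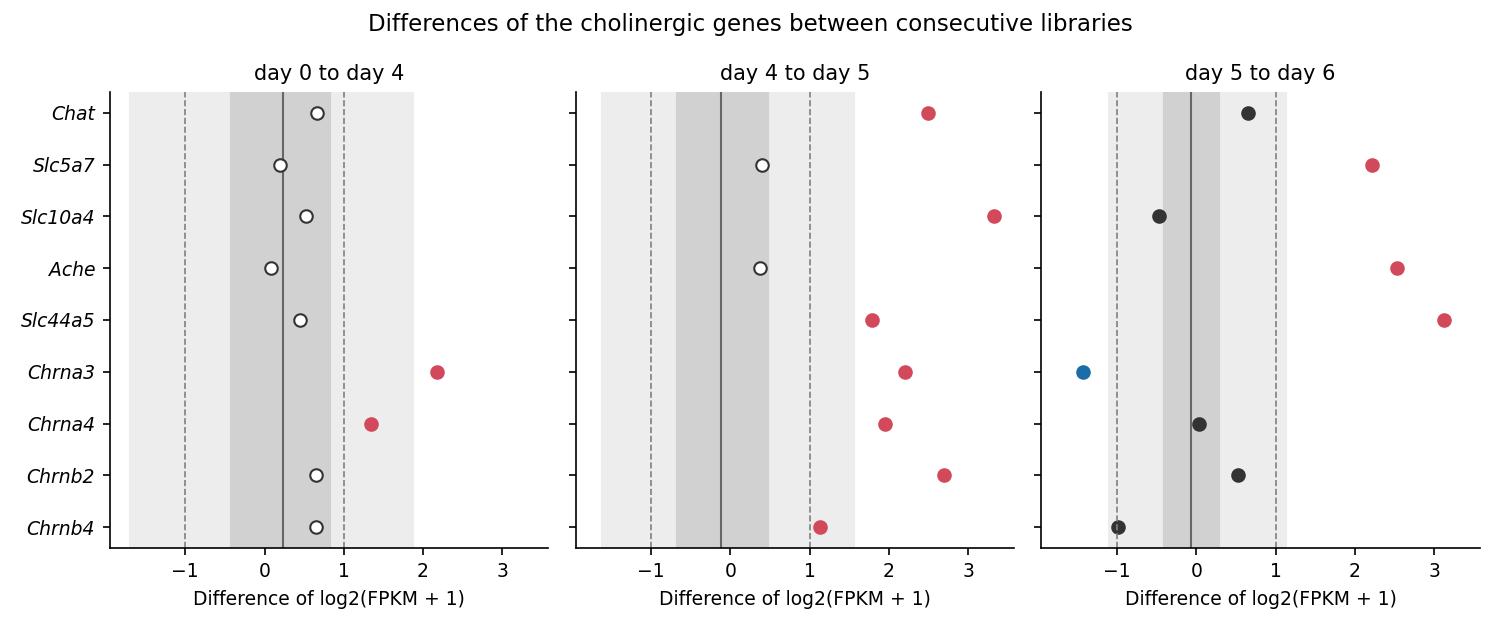
Difference of log2(FPKM + 1) for each gene in the 3 steps. Red points are called higher, blue lower and black neither, open points did not reach 1 FPKM in either library, dashed lines mark 2-fold, and grey bands span the percentiles 25 to 75 (dark) and 5 to 95 (light) of all genes tested, with their median as a line. In the step from day 5 to day 6, Slc5a7, Ache and Slc44a5 lie to the right of the light band and Chrna3 to its left.

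Chat (ENSMUSG00000021919), the enzyme that makes acetylcholine, was listed at 0.0096 FPKM on day 0, 0.596 on day 4, 8.02 on day 5 and 13.2 on day 6. The day 5 level was 13.4 times that of day 4, a difference of 2.50 on the log2(FPKM + 1) scale that ranked 184 from the top of 11339 genes. The day 6 level was 1.64 times that of day 5 and stayed within 2-fold. At its highest, Chat stood above 73.0% of the genes listed at 1 FPKM or more on day 6. A second protein-coding gene overlaps Chat in the RefSeq annotation, and no source used here says how reads of overlapping genes were shared out.

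Slc5a7 (ENSMUSG00000023945), the choline transporter on which reuse of choline at the terminal depends, came later. Its level was 0.0082 FPKM on day 0, 0.150 on day 4, 0.519 on day 5 and 6.05 on day 6. On day 5 it was at 8.59% of its day 6 level, while Chat was at 60.9%. The difference from day 5 to day 6 was 2.21 on the log2(FPKM + 1) scale, an 11.6-fold gain in FPKM, and ranked 61 from the top of 11164 genes. The ratio of the Chat level to the Slc5a7 level was 3.97 on day 4, 15.4 on day 5 and 2.18 on day 6.

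Ache (ENSMUSG00000023328), which ends the signal by splitting acetylcholine, followed the same late course. It was listed at 0.0107, 0.0658, 0.379 and 7.0 FPKM on days 0, 4, 5 and 6. The gain from day 5 to day 6 was 18.5-fold in FPKM and 2.54 on the log2(FPKM + 1) scale, rank 31 from the top. Chat exceeded Ache 21.2-fold in FPKM on day 5 and 1.88-fold on day 6, so the gene for breakdown approached the gene for synthesis within 1 day.

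Slc10a4 (ENSMUSG00000029219) encodes an orphan transporter known from the synaptic vesicles of cholinergic and monoaminergic neurons. It stood at 0.0132 FPKM on day 0, 0.455 on day 4, 13.6 on day 5 and 9.53 on day 6. Its step from day 4 to day 5, 29.9-fold in FPKM and 3.32 on the log2(FPKM + 1) scale, was the largest among the 9 genes in that step and ranked 55 from the top of all genes tested. Slc10a4 was above Chat on day 5, with a ratio of 1.69, and below it on day 6, with a ratio of 0.724.

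Slc44a5 (ENSMUSG00000028360), a member of the choline transporter-like family, reached the highest level of the 9 genes. It was listed at 0.0362 FPKM on day 0, 0.414 on day 4, 3.87 on day 5 and 41.7 on day 6, where it stood above 93.4% of the genes at 1 FPKM or more. It was the only one of the 9 called higher in both of the last steps, 9.35-fold in FPKM from day 4 to day 5 and 10.8-fold from day 5 to day 6. The last difference, 3.13 on the log2(FPKM + 1) scale, ranked 16 from the top. The annotation places 4 other genes across the Slc44a5 locus, 0 of them protein-coding.

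The 250 bases upstream of the RefSeq start of each gene (build GRCm38.p6, a newer build than the mm9 named for the study) were compared for what the late and early genes share. All 9 genes matched an entry. Base composition differed widely, with a GC content of 45.6% for Slc5a7, 54.4% for Slc10a4, 54.8% for Chat, 59.6% for Chrnb2, 61.2% for Chrnb4, 63.2% for Chrna3, 65.2% for Slc44a5, 73.6% for Ache and 74.4% for Chrna4, and a median of 52.4% over 32851 promoter windows. The late genes Slc5a7 and Ache thus stood at the low end and near the high end, with 1 and 25 CpG dinucleotides. The windows of Chat, Slc5a7 and Ache are printed here because these genes make, recycle and break down the transmitter and came up on different days. Chat lies at chr14:32465910-32466159, minus strand, Slc5a7 at chr17:54299035-54299284, minus strand, and Ache at chr5:137288004-137288253, plus strand. Each runs 5′ to 3′ and ends at the base before the start. Capitals mark E-boxes (CANNTG), the general motif of basic helix-loop-helix factors, of which the proneural factors are only a part.
Chat: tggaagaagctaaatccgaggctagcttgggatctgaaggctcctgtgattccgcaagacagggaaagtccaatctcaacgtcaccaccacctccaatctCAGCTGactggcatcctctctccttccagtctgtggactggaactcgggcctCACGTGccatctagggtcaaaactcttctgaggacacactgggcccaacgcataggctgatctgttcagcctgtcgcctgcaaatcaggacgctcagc
Slc5a7: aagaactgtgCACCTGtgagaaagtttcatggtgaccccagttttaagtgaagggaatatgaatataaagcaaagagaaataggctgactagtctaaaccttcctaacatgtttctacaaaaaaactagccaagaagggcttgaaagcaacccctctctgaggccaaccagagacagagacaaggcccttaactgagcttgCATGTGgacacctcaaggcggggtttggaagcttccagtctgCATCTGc
Ache: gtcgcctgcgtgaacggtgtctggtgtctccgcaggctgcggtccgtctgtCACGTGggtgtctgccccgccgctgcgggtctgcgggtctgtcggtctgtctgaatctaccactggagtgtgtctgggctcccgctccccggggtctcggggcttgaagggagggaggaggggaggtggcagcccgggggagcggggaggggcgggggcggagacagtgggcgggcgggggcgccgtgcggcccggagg

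An E-box was found in 8 of the 9 windows (all but Chrna4) and in 66.2% of all windows of this length. The motif reads the same on both strands. Chat held 2, Slc5a7 held 3 and Ache held 1. The variant CACGTG, singled out after the matches were seen, occurred in Chat and Ache, 98 and 199 bases before the start, and in 6.02% of all windows. The variant CAGCTG occurred in 3 of the 9 windows (Chat, Slc44a5 and Chrnb4) and in 13.0% of all windows. The letters TAATTA, a core bound by LIM-homeodomain and other homeodomain proteins, ATCAAT, a core bound by Onecut factors, and TTCAGCACC, the left part of the site of the repressor Rest, were in 0 of the 9 windows on either strand, against 4.84%, 6.72% and 0.301% of all windows. TATAAA occurred in Slc5a7 alone of the 9, 187 bases before the start, and in 12.4% of all windows. These matches describe letters within 250 bases and show no binding.

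Among the receptor subunits within the 9 genes, Chrna3 (ENSMUSG00000032303) was with Chrna4 the first to reach 1 FPKM. It was the one of them called lower at the end. It was listed at 0 on day 0, where a listed 0 can be a failed estimate, then at 3.53, 19.9 and 6.80 FPKM on days 4, 5 and 6. The day 5 level was 5.64 times that of day 4 and 2.93 times that of day 6. The last difference, -1.42 on the log2(FPKM + 1) scale, ranked 307 from the bottom of 11164 genes. On day 5 Chrna3 had the highest level of the 9 genes, and on day 6 it stood behind Slc44a5, Chrnb2, Chat, Slc10a4, Chrna4 and Ache.

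Chrnb4 (ENSMUSG00000035200), a partner subunit of Chrna3, followed it at a lower level, with 0.0062 FPKM on day 0, 0.579 on day 4, 2.44 on day 5 and 0.735 on day 6. The day 5 level was 4.22 times that of day 4 and 3.32 times that of day 6. On the log2(FPKM + 1) scale the last difference was -0.99, just short of a call, and with a pseudocount of 0.1 FPKM it was -1.61 and called lower. The ratio of Chrna3 to Chrnb4 was 6.10, 8.16 and 9.25 on days 4, 5 and 6, a much smaller range than that of either level.

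Chrna5, an accessory subunit that was not among the 9 genes, lies next to Chrna3 and Chrnb4 on chromosome 9. It was listed at 0.292, 1.16, 7.30 and 3.12 FPKM on days 0, 4, 5 and 6, called higher from day 4 to day 5 (1.94 on the log2(FPKM + 1) scale) and lower from day 5 to day 6 (-1.01, or -0.95 and within 2-fold once the median shift is removed). The 3 neighbours thus had their highest levels in the same library, and their day 6 levels were 0.427 (Chrna5), 0.341 (Chrna3) and 0.301 (Chrnb4) of those of day 5. Chrna3 and Chrna5 overlap in the annotation, so reads of their shared stretch may count for either gene. The windows upstream of Chrna3 (chr9:55026563-55026812, minus strand) and Chrnb4 (chr9:55048545-55048794, minus strand), from the same build, are printed because both genes had their highest level on day 5. Capitals again mark E-boxes, of which each window held 2, overlapping in Chrna3.
Chrna3: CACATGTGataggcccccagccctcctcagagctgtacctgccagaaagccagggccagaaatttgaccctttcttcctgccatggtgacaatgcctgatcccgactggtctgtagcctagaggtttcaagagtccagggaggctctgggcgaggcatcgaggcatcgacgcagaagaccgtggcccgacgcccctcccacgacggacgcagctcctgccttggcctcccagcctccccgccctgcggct
Chrnb4: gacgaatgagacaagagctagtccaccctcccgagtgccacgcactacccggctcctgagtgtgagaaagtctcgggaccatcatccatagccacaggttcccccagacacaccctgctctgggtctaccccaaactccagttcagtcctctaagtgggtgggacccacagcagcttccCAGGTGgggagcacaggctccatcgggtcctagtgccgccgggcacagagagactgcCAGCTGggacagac

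Chrna4 and Chrnb2, the pairing common in the brain, did not share the later decline. Chrna4 (ENSMUSG00000027577) was listed at 0.0378 FPKM on day 0, 1.64 on day 4, 9.24 on day 5 and 9.46 on day 6. It was called higher in the first step (1.35 on the log2(FPKM + 1) scale) and in the second (1.96), and its last difference was 0.03. Chrnb2 (ENSMUSG00000027950) was listed at 0.139, 0.783, 10.5 and 15.6 FPKM. Its day 5 level was 13.4 times that of day 4, and the last step, 1.49-fold in FPKM, stayed within 2-fold. Chrnb2 overlaps 1 other protein-coding gene in the annotation. The ratio of Chrna4 to Chrnb2 went from 2.10 on day 4 to 0.880 on day 5 and 0.606 on day 6, as Chrnb2 gained more.

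The make-up of the nicotinic transcripts therefore differed from day to day. Over 16 subunit genes the summed level was 3.63, 14.8, 52.4 and 37.9 FPKM on days 0, 4, 5 and 6. On day 4 Chrna7, which forms receptors on its own, held the largest share, 44.1% (6.52 FPKM), and it held 5.55% on day 5 (2.91 FPKM) and 5.34% on day 6 (2.03 FPKM). Chrna5, Chrna3 and Chrnb4 together held 35.7% on day 4, 56.6% on day 5 and 28.1% on day 6. Chrna4 and Chrnb2 together held 16.4%, 37.7% and 66.1%. The order of these groups turned between days 5 and 6, with Chrna3 first at 38.0% on day 5 and Chrnb2 first at 41.2% on day 6. Without replicates, the error of these shares is not known.

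**Figure D3:**
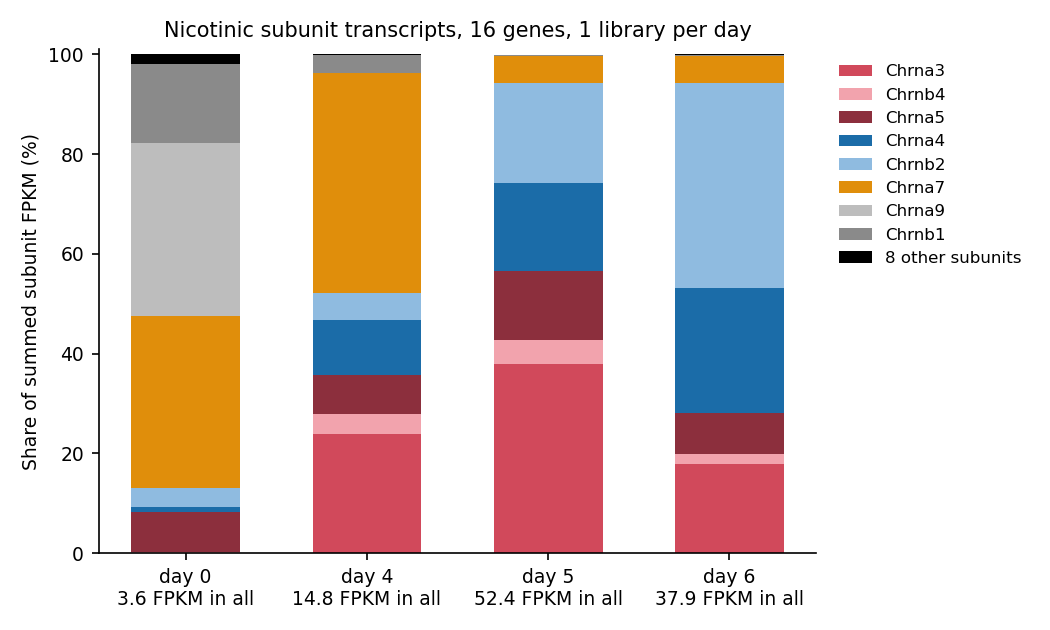
Share of each subunit in the summed FPKM of 16 nicotinic subunit genes, by day, with the sum under each bar. The red tones (Chrna3, Chrnb4 and Chrna5) fill 56.6% of the bar on day 5 and 28.1% on day 6, and the blue tones (Chrna4 and Chrnb2) 37.7% and 66.1%.

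Other nicotinic subunits were low. The muscle subunits Chrna1, Chrnb1, Chrnd, Chrne and Chrng summed to 0.104 FPKM on day 5 and 0.113 on day 6, and Chrna1 and Chrnb3 were listed at 0 in all 4 libraries. Chrna9 was listed at 1.26 FPKM on day 0 and at 0 afterwards. Chrna2, Chrna6 and Chrna10 stayed below 0.05 FPKM in every library. Of the 12 subunits outside the 9 genes, 1 was called higher and 1 lower from day 0 to day 4 (Chrna7 and Chrna9), 1 higher from day 4 to day 5 and 1 lower from day 5 to day 6 (Chrna5 both times). With a pseudocount of 0.1 FPKM, Chrna7 was also called lower from day 4 to day 5 (-1.14). Of the 5 muscarinic receptors, 1 was called, Chrm2, named after its value was seen, at 0.112 FPKM on day 5 and 2.36 on day 6.

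Genes that help nicotinic receptors to fold or that bind them were listed separately, and 8 were in the table. From day 0 to day 4, 3 were higher, of which Ric3, a chaperone of nicotinic receptors, reached the level for naming, with 2.47 and then 6.58 FPKM (1.13 on the log2(FPKM + 1) scale, or 0.92 and no longer called once the median shift is removed). From day 4 to day 5, 1 was higher (Lypd1, 0.485 to 3.63, named after its value was seen) and 1 lower (Ly6e, 7.64 to 2.41 FPKM). From day 5 to day 6, 3 were higher and 0 lower. These were Tmem35, the nicotinic receptor chaperone also called NACHO (4.63 to 11.8 FPKM), and 2 genes of the Ly6 family, whose proteins are known to modulate nicotinic receptors: Ly6h (1.17 to 16.02) and Lypd1 (3.63 to 13.2). The median over the 5 genes of this list that were tested in that step was 1.19.

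Of the genes that take up choline or build it into phosphatidylcholine, 9 of 11 were at 1 FPKM or more on day 0. On each later day 8 of 11 were. Of those that supply acetyl groups, 7 of 7 were at that level on every day. Slc44a1, the widely used choline transporter of the family to which Slc44a5 belongs, went from 33.3 FPKM on day 0 to 5.70 on day 4, 2.71 on day 5 and 3.35 on day 6, so that on day 6 Slc44a5 had the highest level of Slc44a1 to Slc44a5. Of 11 genes of choline uptake and phosphatidylcholine synthesis, 2 were higher (1 once the median shift is removed) and 3 lower from day 0 to day 4, 0 and 2 from day 4 to day 5, and 1 and 0 from day 5 to day 6. Beside Slc44a1, those reaching 5 FPKM were Chkb, a choline kinase, on day 4 (2.73 to 7.85) and Chpt1, which completes phosphatidylcholine, on day 5 (7.43 to 2.22). Of 7 genes of acetyl coenzyme A supply, 2 were higher from day 4 to day 5 and 0 in the other steps, with 0 lower in any step (1, Pdha1, from day 0 to day 4 once the median shift is removed). They were Acly, which frees acetyl coenzyme A from citrate (51.9 to 120.6 FPKM), and Acss2, which makes it from acetate (1.85 to 7.42).

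The genes listed beside Ache differed among themselves, and are named after their values were seen. Prima1, which anchors Ache in the membranes of neurons, was listed at 0.0272, 0.190, 0.450 and 3.29 FPKM and called higher on day 6. Colq, the collagen tail used at muscle, was at most 0.0221 FPKM. Bche, the second cholinesterase, went the other way, with 0.413, 4.07, 2.98 and 0.395 FPKM, and was called lower on day 6. Bche was above Ache on days 4 and 5, and Ache was above Bche on day 6.

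Known regulators of cholinergic genes form a list that shares Isl1, Lhx3, Lhx4 and Mnx1 with the motor neuron factors above. The share of all genes called in each step is given above, and any effect of these regulators on the 9 genes was not tested. Of 7 regulators, 4 were higher and 1 lower from day 0 to day 4. From day 4 to day 5, 4 were higher: Isl1 (3.68 to 88.0 FPKM), Lhx3 (2.09 to 24.1), Mnx1 (3.95 to 36.5) and Lhx4 (0.797 to 22.8). In the same step 2 were lower. They were Gbx1 (2.15 to 0.181, named after its value was seen) and Rest, a repressor of neuronal genes including cholinergic ones (6.91 to 2.38). Rest had been at 80.9 FPKM on day 0 and was at 1.07 on day 6. From day 5 to day 6, when Slc5a7 and Ache came up, 0 regulators were higher and 2 lower, Lhx3 (24.1 to 3.90) and Lhx4 (22.8 to 10.4, within 2-fold once the median shift is removed). Isl1 was at 116.5 FPKM on day 6. Lhx8 has more than 1 entry in the table and was left out.

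Genes of other transmitters show what else these libraries held. Of 8 genes of monoamine neurons, 3 were called higher from day 4 to day 5, as Chat was, against 11.5% of all genes tested. They were Th, which makes the precursor of dopamine (0.158 to 10.6 FPKM), Slc18a2, the vesicular monoamine transporter (0.314 to 10.2), and Ddc, which completes dopamine and serotonin (6.90 to 21.4). On day 6 Th stood at 25.9 and Slc18a2 at 22.4 FPKM, both above Chat at 13.2. Ddc, already at 7.42 FPKM on day 0, stood at 11.2 on day 6, below Chat. The 8 genes summed to 7.58, 7.48, 42.9 and 60.0 FPKM on days 0, 4, 5 and 6. Dbh, which makes noradrenaline, was listed at 0 on days 0 and 4 and at 0.0783 FPKM on day 6. The uptake transporters Slc6a2, Slc6a3 and Slc6a4 were at most 0.0992 FPKM, and Tph2, also in the list, at most 0.6175. The part of cells with these transcripts in the levels of Slc10a4, which both kinds of neuron use, was not tested.

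Glutamatergic genes summed to at most 0.329 FPKM on days 0, 4 and 5 and to 2.29 on day 6, where Slc17a6 was listed at 1.53, and 1 of 3 was higher in the last step. The 4 genes of GABA and glycine neurons summed to 1.12 FPKM on day 0 and at most 0.358 later. The 7 skeletal muscle genes, a tissue in which Ache is also known to be high, summed to at most 1.71 FPKM in any library, with 0 called higher in any step and Myod1 listed at 0 throughout. The 7 glial genes summed to between 5.74 and 12.8 FPKM, mostly Mbp on days 5 and 6 (11.5 and 9.90), with Gfap at most 0.0204. From day 4 to day 5, 1 of them was called higher (Mbp, from 2.18 FPKM) and 1 lower (Slc1a3, 6.65 to 0.339), and 0 were called in the other steps.

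**Figure D4:**
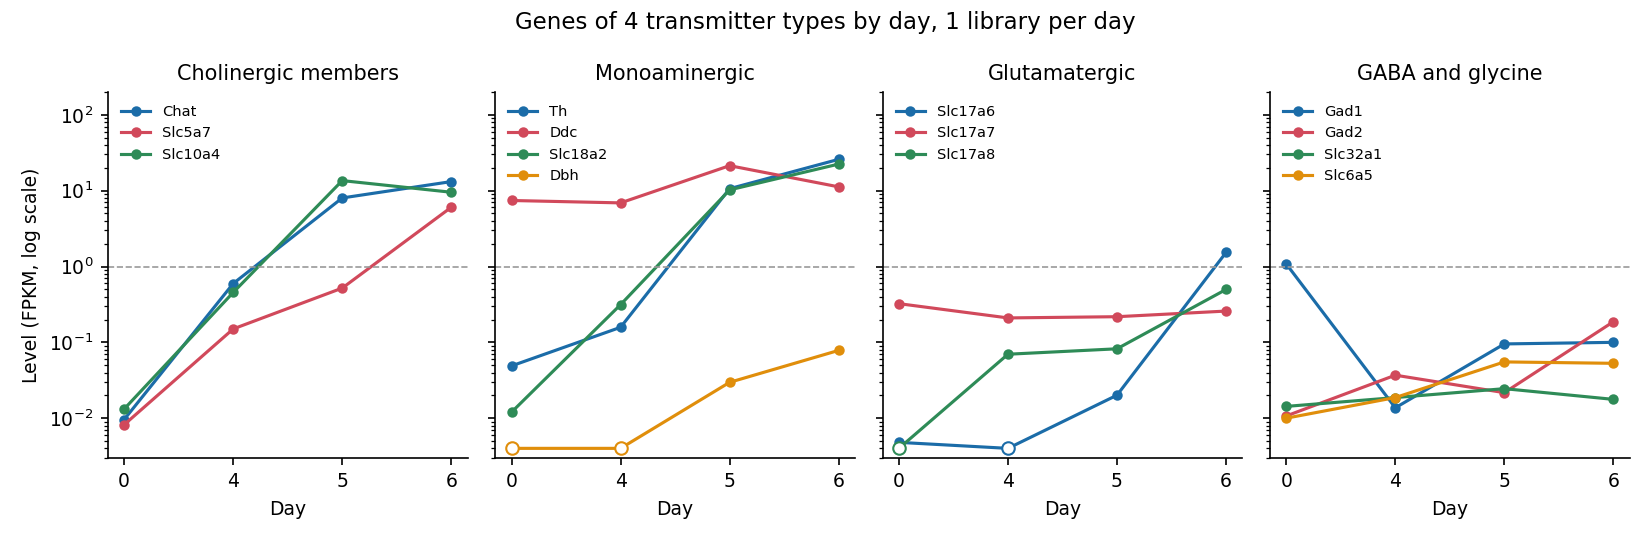
FPKM on a log axis by day for 3 of the cholinergic genes, 4 of the 8 genes of monoamine neurons, 3 of glutamatergic neurons and 4 of GABA and glycine neurons, 1 point per library. Open circles mark genes listed at 0 and the dashed line is 1 FPKM. Th and Slc18a2 came up on day 5 together with Chat, and the genes of GABA and glycine neurons stayed below 1 FPKM from day 4 on.

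Profiles most like those of 5 of the genes were sought among 11140 others, by the Euclidean distance between log2(FPKM + 1) profiles over the 4 libraries, each centred on its own mean. With only 4 points that share libraries, closeness is a description. The nearest profile to Chat was that of Chrnb2 (distance 0.151), followed by Unc13a, which primes synaptic vesicles (0.153), and Mapk8ip2, a scaffold of JNK signalling (0.166). Slc5a7 was nearest to Kcnip1, a potassium channel-interacting protein (0.106), Eef1a2, the elongation factor isoform of neurons and muscle (0.145), and Glra2, a glycine receptor subunit (0.159). Ache was nearest to Gabrb2, a GABA receptor subunit (0.129), Dync1i1, a dynein intermediate chain of neurons (0.197), and Lrp1b (0.246). These 6 genes were listed below 1 FPKM on day 5 and between 5.11 and 8.96 on day 6.

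Chrna3 had no profile as close. The nearest were Gdf11, a secreted factor of the TGF-beta family (0.264), Irs1, an adaptor of insulin receptors (0.420), and Slc1a2, a glutamate transporter (0.424), each highest on day 5, at 31.9, 26.4 and 23.9 FPKM. Chrna4 was nearest to Nova1, a neuronal splicing regulator (0.153), Tmcc1 (0.154) and Sox11, a transcription factor of immature neurons (0.164), which went from 202.1 to 202.4 FPKM between days 5 and 6.

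**Figure D5:**
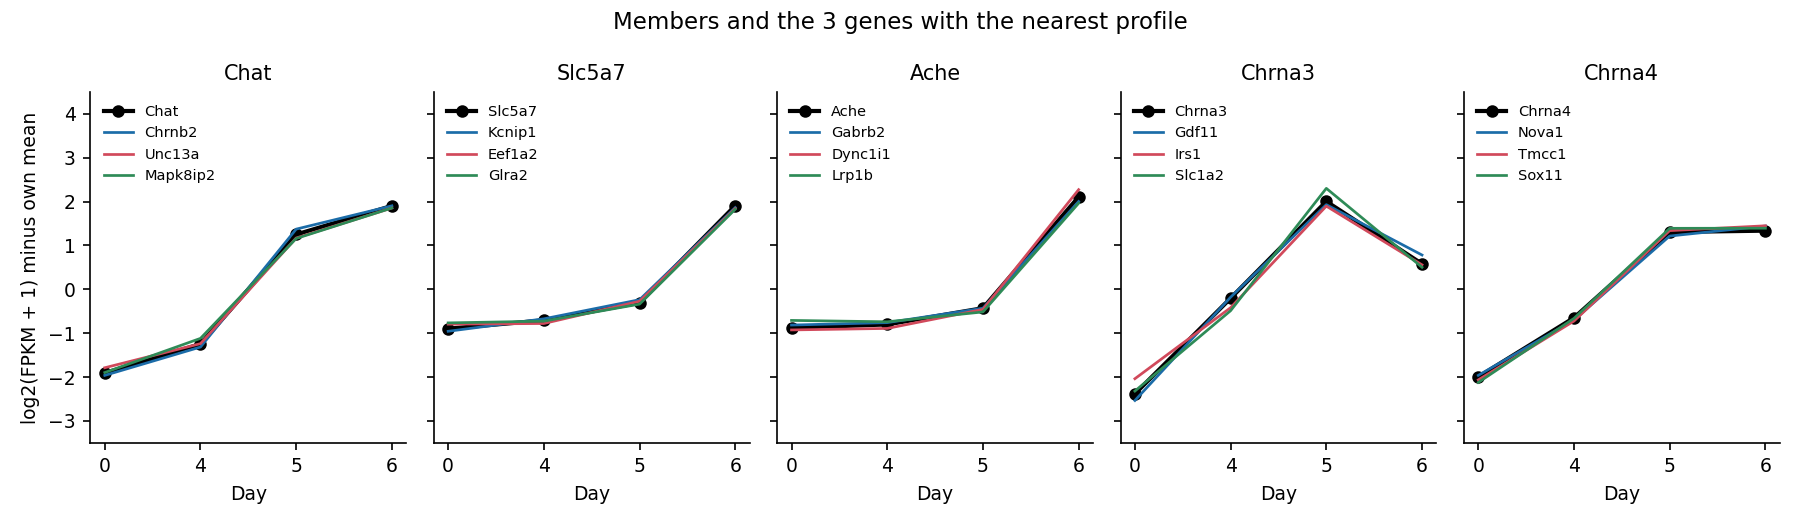
log2(FPKM + 1) minus each gene's own mean over the 4 libraries, by day, for 5 cholinergic genes (black) and the 3 genes nearest to each (colours). Chat and Chrna4 make most of their gain by day 5, Slc5a7 and Ache on day 6, and Chrna3 is highest on day 5.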

How the data were processed

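The authors deposited FPKM per gene for 4 libraries, 1 per day. No source used here says which program produced them. The build mm9 and the tools STAR, MACS, HOMER 4.7.2 and Bowtie 0.12.7 stand in the submitters' processing notes without a role, and per the labels' protocols ribosomal RNA was removed before sequencing. From the FPKM, differences of log2(FPKM + 1) between consecutive days were computed with Python 3.11.15 and pandas 2.3.3 for genes reaching 1 FPKM on at least 1 of the 2 days, and called at 2-fold. Alternatives were a pseudocount of 0.1 FPKM, no filter on low values, and rescaling to a median log2 ratio of 0.

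The genes and lists were chosen with earlier results of these data known. The 9 genes are all named. Other listed genes are named at 2-fold and 5 FPKM, or as nicotinic subunits, and the 3 nearest profiles are given for 5 genes. Symbols with more than 1 entry were left out of the lists, and some listed genes are not reported here or counted. Of the 9 gene IDs, 9 carried the same symbol in the reference names. Promoters are RefSeq entries of GRCm38.p6. Binding and chromatin files were not used here, since no mm9 annotation was at hand to place them beside genes, and the other samples enter no comparison.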

Additional observations from a re-analysis of the deposited data

How the results depend on the processing

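Of 81 values (27 differences of the 9 genes, each under 3 alternatives), 80 kept their direction and their status as called or not called. The exception was Chrnb4 from day 5 to day 6, which became called lower with a pseudocount of 0.1 FPKM, so that 2 of the 9 genes were then lower in place of 1. The counts called higher (2, 7 and 3 in the 3 steps) were the same under all 3 alternatives. Lifting the filter could change none of its 27 values and no count. With a pseudocount of 1 FPKM, a gene below 1 FPKM in both libraries cannot differ 2-fold. That alternative therefore says nothing on how firm the calls are. Differences of genes below 1 FPKM in both libraries were not called with either pseudocount, because the filter was kept, but their size depended on it. With 0.1 FPKM all of these but Ache from day 0 to day 4 (0.58) passed 2-fold. Chat from day 0 to day 4 went from 0.66 to 2.67, and Ache from day 4 to day 5 from 0.37 to 1.53. Removing the median shift moved differences by up to 0.24 on the log2 scale in the first step, 0.15 in the second and 0.08 in the third. The same alternatives for the other lists were chosen after seeing the data, and most of the calls they changed are given beside those genes. With a pseudocount of 0.1 FPKM, Chrna5 (1.68) and Mbp (1.57) were also called higher from day 0 to day 4, and Slc44a1 (-1.04, day 4 to day 5) and Rest (-1.08, day 5 to day 6) lower. No paired analysis was possible because each day has 1 RNA library and the results come from no test. With 1 library per day, no library could be left out. Levels below about 0.04 FPKM, which include 8 of the 9 genes on day 0, may rest on single reads, and the folds against them were not used.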
